A study of Rattus norvegicus with 3 samples.

Results

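The voltage-gated and related ion channel genes on the array were taken as every probe whose printed gene symbol, ignoring case, starts with Kcn, Cacn, Clcn, Hcn, or Scn followed by a digit. This gave 107 genes on 214 spots, of 5690 accessions printed on each array. They were 64 potassium channel genes, 22 calcium channel genes, 12 sodium channel genes, 5 chloride channel genes and 4 hyperpolarization-activated (HCN) genes. Symbols were those of the array's own annotation, and current RefSeq symbols would bring in 8 more probes, among them the probe printed as KChIP4, which is Kcnip4. Of the 107, 4 now carry another symbol, among them 3 used here: Cacna2 is Cacna2d1, Scn2a1 is Scn2a and Scn6a is Scn7a.

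Ion channels let selected ions cross a membrane down their electrochemical gradient. Pore-forming subunits carry the current and set which ion passes, while auxiliary subunits alter how many channels reach the membrane and how they open. Most members are known for their part in neurons, heart and skeletal muscle. Liver cells are not electrically excitable in that sense, but hepatocytes and bile duct cells use potassium and chloride channels to regulate cell volume and secretion, and vascular smooth muscle, nerve fibres and blood cells in the organ bring channels of their own.

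Total RNA came from livers of male rats of the spontaneously hypertensive strain (SHR), whose blood pressure rises as the animals mature, and of the related normotensive Wistar Kyoto strain (WKY). SHR of 1 month was compared with pooled WKY of the same age on 1 array, SHR of 3 months with pooled WKY of that age on another, and SHR of 1 month with SHR of 3 months on the last. The labels do not give the number of animals that each RNA stands for. With 1 array for each comparison, no replicate and no dye swap, every difference is a value without a replicate check and carries no p-value.

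Each array was read in 2 columns, named in the file headers as WKY then SHR on the strain arrays, and as SHR of 1 month then SHR of 3 months on the age array. All ratios are log2 of the second column over the first after background correction and loess normalization, so a positive value means a brighter SHR column on the strain arrays. On the age array the headers make a positive value higher at 3 months. The labels instead give the 1-month RNA the dye that SHR had on the strain arrays, so the direction of the age ratio is not settled and every age value may carry the opposite sign. The error printed is that between both spots of a probe. Its pooled SD over the members was 0.048, 0.035 and 0.057 log2 on the 1-month, 3-month and age arrays, and it covers printing and reading only. No member had spots more than 0.5 apart, and the widest gap was 0.33, for Cacng7 on the age array.

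RefSeq promoter windows (build GRCr8, 250 bases before to 50 after a gene's start) were held for 70 of the 107 members, 8 of them with more than 1 window. Motifs were searched on both strands after the ratios were known. The GC box GGGCGG stood in 35 of the 70 members (50% against 36% of 27457 genes with a window), and the TATA box TATAAA in 6 (8.57% against 15.3%), namely Cacna1s, Cacng2, Clcn1, Clcn7, Kcnj1 and Kcnj13. Median GC content was 61% for the members and 52.3% for all genes. Cacng7, Kcnh2 and Kcnk12 have no window in the table. The windows below belong to the members whose ratios lie farthest from 0 among those that have one, with motif letters in capitals. In Cacng3 the capitals mark TTCAGCACC and GGACAGC on either strand, the left and right parts of the RE1 element that the neuronal repressor REST is known to bind. In the others they mark the GC box.
Cacng3: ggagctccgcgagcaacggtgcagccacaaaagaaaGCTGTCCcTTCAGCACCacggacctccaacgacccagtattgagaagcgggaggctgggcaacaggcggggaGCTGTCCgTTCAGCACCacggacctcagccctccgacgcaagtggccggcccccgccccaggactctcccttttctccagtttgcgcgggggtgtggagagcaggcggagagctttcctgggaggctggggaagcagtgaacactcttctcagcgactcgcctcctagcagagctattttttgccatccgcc
Kcna3: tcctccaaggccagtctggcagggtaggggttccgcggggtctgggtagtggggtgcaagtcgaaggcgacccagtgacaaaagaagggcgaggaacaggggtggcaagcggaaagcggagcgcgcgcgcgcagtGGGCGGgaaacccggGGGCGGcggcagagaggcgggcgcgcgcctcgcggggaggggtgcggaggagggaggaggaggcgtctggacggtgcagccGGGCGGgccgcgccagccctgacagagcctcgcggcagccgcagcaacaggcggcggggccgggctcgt
Kcne3: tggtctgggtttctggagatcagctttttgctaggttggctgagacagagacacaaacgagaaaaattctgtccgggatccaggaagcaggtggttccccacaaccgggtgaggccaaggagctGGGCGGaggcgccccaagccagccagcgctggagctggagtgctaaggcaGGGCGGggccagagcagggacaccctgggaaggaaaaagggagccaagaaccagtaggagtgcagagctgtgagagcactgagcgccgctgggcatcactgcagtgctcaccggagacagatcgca
Kcnj5: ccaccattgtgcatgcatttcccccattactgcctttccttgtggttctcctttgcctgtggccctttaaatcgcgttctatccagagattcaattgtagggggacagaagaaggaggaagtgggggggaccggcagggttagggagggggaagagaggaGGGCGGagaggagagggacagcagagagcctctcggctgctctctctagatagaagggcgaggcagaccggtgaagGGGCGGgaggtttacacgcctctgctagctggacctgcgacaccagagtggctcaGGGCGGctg

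The Cacng3 window lies on the plus strand at chr1:186632312-186632611. It held both RE1 parts, each in 2 copies, with the right part inverted and 1 base before the left part. The arrangement searched for was that of this window, so Cacng3 was bound to match. No other gene among the 27457 had it, and the parts in other orders or spacings were not counted together. The left part alone occurred in 1 member of 70 (1.43% against 0.404% of all genes), and the right part in 8 (11.4% against 7.23%): Cacng3, Kcna2, Kcnd2, Kcnd3, Kcnh5, Kcnj5, Scn11a and Scn4a. The other windows lie at chr2:197320074-197320373 on the plus strand (Kcna3, 3 GC boxes), at chr1:163935785-163936084 on the plus strand (Kcne3, 2 GC boxes) and at chr8:39011047-39011346 on the minus strand (Kcnj5, 3 GC boxes). These matches describe letters, and binding was not measured.

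As a group the channel genes were centred near 0 on every array. At 1 month 106 members passed the filter, with a median log2 ratio of -0.0042 against -0.0107 for all 5684 probes kept. At 3 months the median of 107 members was 0.018 against -0.014 for 5651 probes. On the age array the median of 106 members was -0.057 against -0.0086 for 5686 probes, or 0.057 with the sign turned. The members' ratios had an SD of 0.27, 0.23 and 0.34, and those of all probes had 0.23, 0.22 and 0.33, so members spread about as widely as the rest of the array.

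Few members reached a 1.5-fold difference between strains. At 1 month 0 members were at least 1.5-fold higher in SHR, where 0.194% of all probes were, and 2 (Cacng3 and Cacng7) were at least 1.5-fold lower, where 2.41% of all probes were. At 3 months 1 member, Kcne3, was higher (0.566% of all probes) and 0 were lower (1.49%). With a 2-fold threshold the strain arrays left 1 member, Cacng7 at 1 month. At that threshold 22 of 5684 probes were lower and 0 higher at 1 month, and 4 of 5651 were lower and 2 higher at 3 months. At 1.5-fold in either direction the shares of members were 1.89% and 0.935%, against 2.6% and 2.05% of all probes.

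The age array moved more. There 3 members (Kcne3, Kcnh2 and Kcnj5) were at least 1.5-fold higher in the second column, against 2.04% of all probes. Another 7 (among them Cacng3, Cacng7, Kcna3, Kcnh5, Kcnn2 and Scn11a) were at least 1.5-fold lower, against 5.42% of all probes. Together that is 9.43% of the members and 7.46% of all probes. No member was 2-fold apart in either direction, while 3 of 5686 probes were 2-fold higher and 52 were 2-fold lower. The difference between the strain ratios of both ages, taken as 3 months minus 1 month, was at least 1.5-fold upward for 3 members (Cacng3, Cacng7 and Kcnk12, against 1.68% of all probes). It was downward for 0 (1.12%). Without spots in bright local background Kcnk12 alone remained, and the value of Cacng3 rests on a bound.

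**Figure D1:**
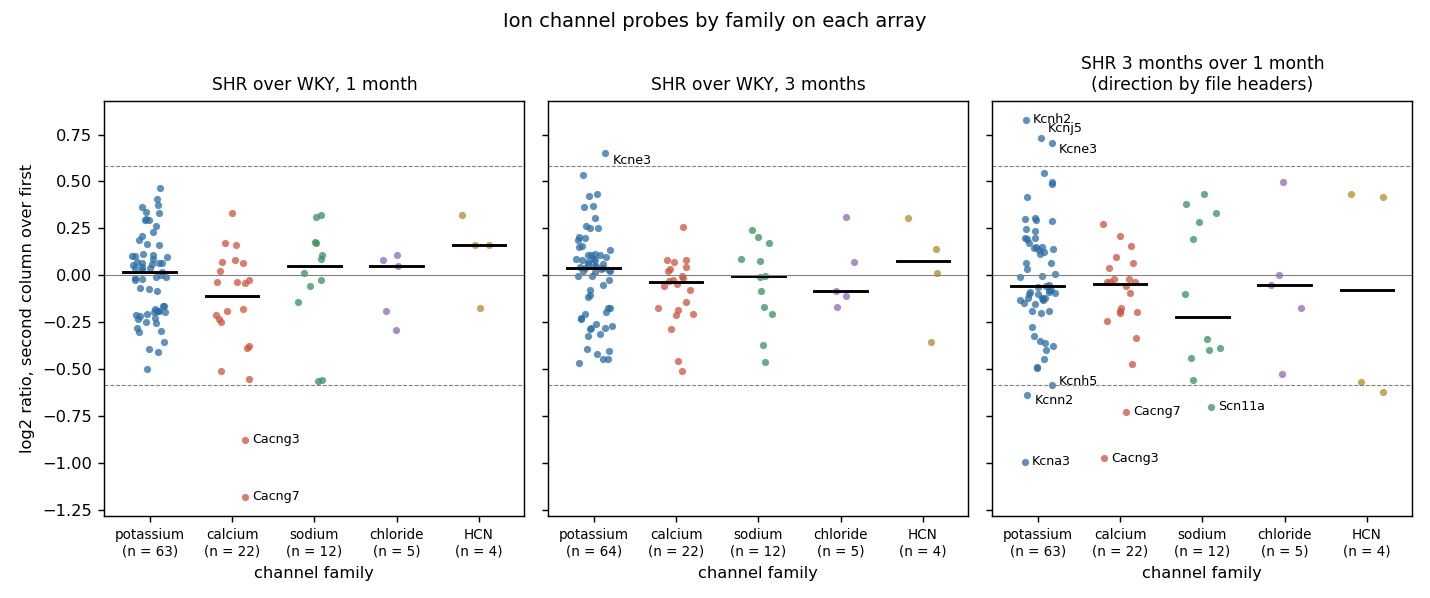
Log2 ratio of each ion channel probe (points) by family (horizontal axis) on the 3 arrays, with family medians as black bars and dashed lines at 1.5-fold. Named are Cacng3 and Cacng7 at 1 month, Kcne3 at 3 months and members past 1.5-fold on the age array.

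Brightness sets how far a ratio can be read here. Log2 intensity, the mean of both columns after correction, had a median of 11.2, 11.3 and 10.7 over the members and 11.4, 11.6 and 10.9 over all probes. Members below a log2 intensity of 9 numbered 24, 8 and 31 (22.6%, 7.48% and 29.2%, against 19.0%, 4.44% and 24.7% of all probes). The small number at 3 months goes with that array's background: 442 of its 11394 gene spots lay in local background over 3 times the array's median, against 18 and 0 on the others, and the correction then placed every member at a log2 intensity of 8.80 or more. Brightness of different probes cannot be set against each other, because probes differ in how strongly they bind.

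There were 7 members near background in every column of every array, with raw intensities between 42.1 and 66.3: Cacna1a, Cacna2, Kcnab3, Kcnh1, Kcnmb1, Kcnn3 and Kcns3. Cacna1a is the pore of the presynaptic P/Q-type calcium channel, Kcnmb1 the smooth muscle subunit of the large-conductance potassium channel, and Kcnn3 a small-conductance calcium-activated channel. Their ratios, 0.039 to 0.16, are those of the background, and no difference was detectable for them. Kcnmb1 passed the filter on the 3-month array alone.

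**Figure D2:**
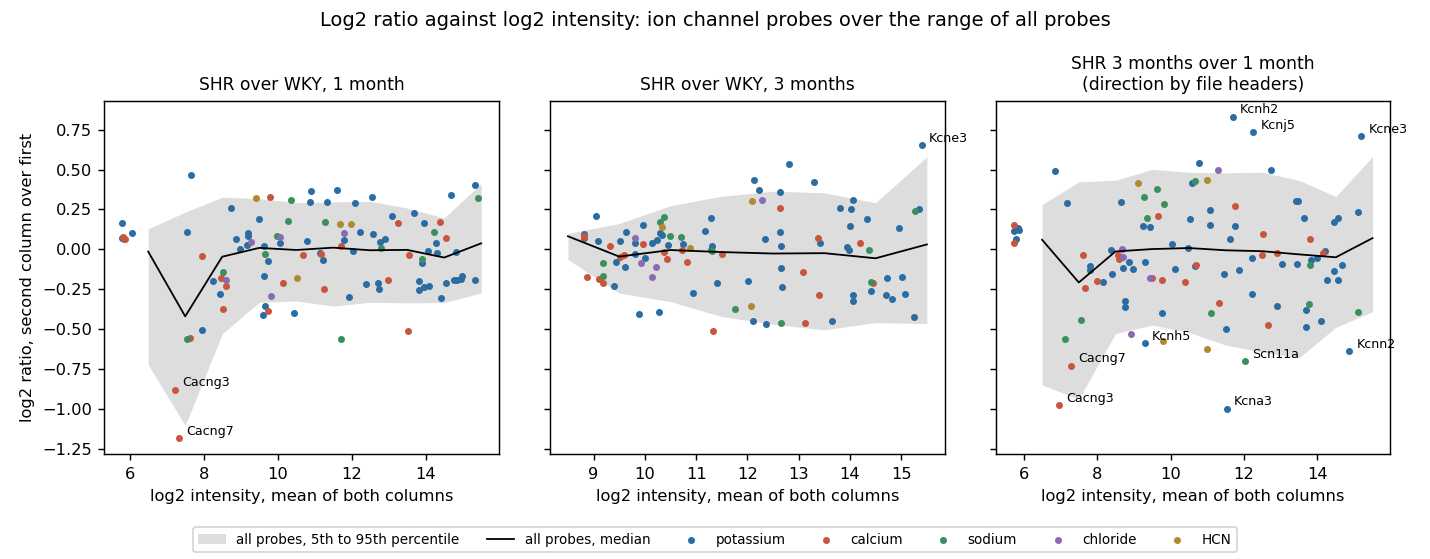
Log2 ratio against log2 intensity for the ion channel probes (points, coloured by family) on the 3 arrays. The grey band spans the 5th to 95th percentile of all probes in steps of 1 log2 unit and the line is their median, which dips to -0.42 between 7 and 8 on the 1-month array, where Cacng3 and Cacng7 lie.

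Among the calcium channel genes, the gamma and TARP subunits held the lowest ratios. TARPs (transmembrane AMPA receptor regulatory proteins) bring AMPA-type glutamate receptors to synapses and slow their closing, and Cacng7 and Cacng3 belong to them. Cacng7 read 297 in the WKY and 80.2 in the SHR column at 1 month, 266 and 80.7 at 3 months, and 260 and 90.4 in the columns that the headers name SHR 1 month and SHR 3 months on the age array. On each array it was dimmer in the second column, which stood not far above a local background of 47 to 49. The log2 ratios were -1.18, -0.18 and -0.73. Spots of Cacng7 gave -1.16 and -1.20 at 1 month and -0.89 and -0.56 on the age array. At 3 months its ratio was -0.90 without the bright background spots, none of which was its own, so the change of its strain ratio with age, 1.00 with all spots, came to 0.28 without them.

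Cacng3 read 246 and 87.2 at 1 month and 211 and 67.1 on the age array. Its log2 ratios were -0.88 and -0.97. At 3 months both of its spots lay in bright background (103 and 148 in the 2 columns), its readings were 201 and 116, the SHR column was not above background, and the WKY column was at least 1.08-fold brighter. That array gives no value for Cacng3 once bright spots are left out. Its change of the strain ratio, 0.70, therefore rests on a bound.

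At 1 month both TARPs lay where dim probes as a whole leaned the same way. The 263 probes between log2 intensity 7 and 8 on the 1-month array had a median ratio of -0.42 and a 5th percentile of -1.10. Cacng3 lay inside that range and Cacng7 below it. The corresponding 420 probes of the age array had a median of -0.21 and a 5th percentile of -0.94, and Cacng7 lay inside that range. Cacng3 was dimmer there, among 159 probes between 6 and 7 with a median of 0.06 and a 5th percentile of -0.85, and lay below that range. Kcnip4, a calcium-binding subunit of A-type potassium channels in neurons and a gene named with these 2 as marking the channel set, ran otherwise: its readings were 871 and 668, 771 and 345, and 473 and 354, with ratios of 0.40, -0.16 and 0.56.

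The remaining gamma subunits were brighter. Cacng1, the gamma subunit of the skeletal muscle calcium channel, was lower in the second column throughout, with -0.51, -0.46 and -0.48 and raw values of 15394 and 8899 at 1 month. Cacng8, another TARP, had -0.03 at 1 month and -0.51 at 3 months (3377 and 1376 raw). With all spots that was the lowest strain ratio of any member at that age. Without the bright background spots Cacng8 had -0.58, and Cacng7 (-0.90), Cacna1s (-0.81), Kcnj6 (-0.64) and Kcnma1 (-0.59) lay lower. Cacng2, the TARP known as stargazin, stayed within 0.21 of 0 on each array, as did Cacng5. Cacng6 stood at 0.33, -0.01 and 0.21, and Cacng4 at -0.23, 0.03 and -0.04.

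Of the 9 pore-forming calcium channel genes, 3 had positive strain ratios at 1 month and 3 at 3 months, and 0 passed 1.5-fold on any array. Cacna1s, the pore of the skeletal muscle channel, came closest, with -0.56 at 1 month (303 in WKY and 121 in SHR). At 3 months it had -0.21 with all spots and -0.81 without the bright ones. Cacna1c, the L-type channel that heart and arterial muscle open to contract, had -0.25, -0.03 and -0.33. Cacna1e, an R-type channel, had the highest values of the family at 3 months and on the age array, 0.26 and 0.27. The 4 beta subunits, which carry the pore to the membrane, lay between -0.21 and -0.04 at 1 month and between -0.08 and 0.07 at 3 months. As a family the calcium genes had a median of -0.11 at 1 month, -0.04 at 3 months and -0.05 on the age array, with 7, 7 and 6 of 22 above 0. At 1 month 9 of the 22 were dimmer than log2 intensity 9.

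**Figure D3:**
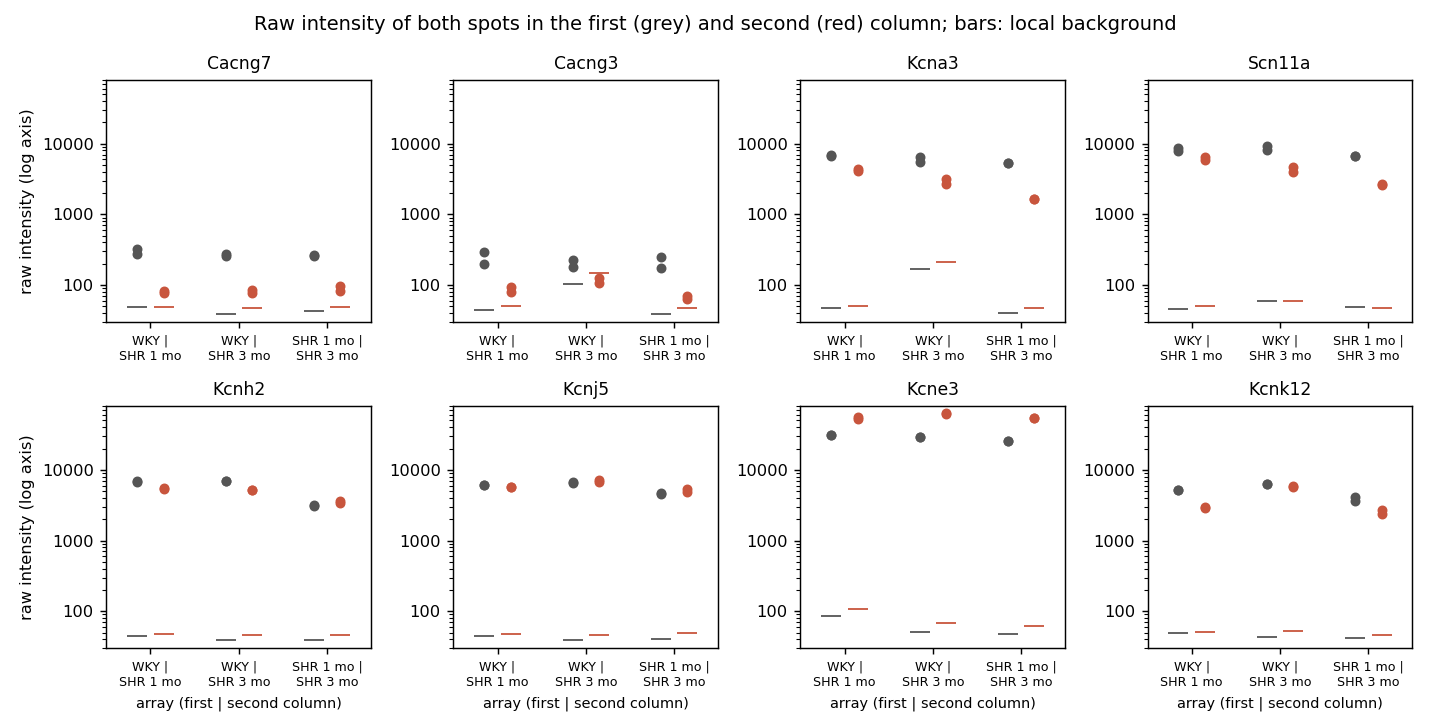
Raw intensity (log axis) of both spots of 8 members in the first column (grey) and second column (red) of each array, with local background as short bars. Cacng7, Cacng3, Kcna3 and Scn11a were dimmer in the second column on every array and Kcne3 was brighter there on every array.

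Kcne3 was the member with the highest strain ratio at 3 months. It encodes a small auxiliary subunit that joins the potassium channel Kcnq1 in epithelia and holds it open. Raw intensity was 31222 in WKY and 53737 in SHR at 1 month, 29312 and 62487 at 3 months, and 25867 and 53920 on the age array. SHR read brighter than WKY at both ages, and the second column brighter on all arrays. Other bright probes shared that raw order on all arrays, among them Abcc8, Kcnj11, Dlg1, Trpc6, Trpv2 and P2rx4. Exceptions were Kcnn2, brighter in the second column at 1 month alone, and Kcnk3, dimmer there at 3 months. The raw order of the columns is thus not particular to Kcne3. Log2 ratios of Kcne3 were 0.40, 0.65 and 0.71. Probes between log2 intensity 15 and 16 had a 95th percentile of 0.41, 0.58 and 0.58. Kcne3 lay inside that range at 1 month and above it on the other arrays. Its spots differed by 0.09, 0.02 and 0.002. The readings are near the highest values on the arrays (65535, 65410 and 62408). Kcnq1, its pore-forming partner, had -0.25, 0.02 and -0.05.

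Other auxiliary potassium channel subunits stayed under 1.5-fold. Kcnip2, a partner of the A-type channels of heart, had 0.29, 0.43 and 0.15, and Kcnip1 had 0.23, 0.25 and 0.30. Kcnmb4, the neuronal subunit of the large-conductance calcium-activated channel, had -0.08, -0.45 and -0.49 (17352 and 9999 raw on the age array). Kcnab1, a beta subunit of voltage-gated channels, was lowest at 1 month with -0.50, at 401 and 150 raw, and had -0.08 and -0.10 on the others. Of the 9 auxiliary genes kept at 1 month, 5 had positive ratios, and of the 10 kept at 3 months 7 did.

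The 14 inward rectifiers let potassium pass more readily into the cell than out and hold the resting potential. Kcnj5, a G-protein-gated channel of the atrium whose human gene is mutated in aldosterone-producing adrenal adenomas, had the second highest strain ratio at 3 months. It read 6161 in WKY and 5715 in SHR at 1 month, 6657 and 6980 at 3 months, and 4620 and 5126 on the age array. After loess the ratios were 0.33, 0.53 and 0.73, past 1.5-fold on the age array. Kcnj1, a kidney tubule channel, was the highest member at 1 month with 0.46, but at 217 and 177 raw. Its 3-month ratio was 0.21 with all spots and 0.53 without the bright ones. Kcnj6 lay on the other side, with -0.41, -0.40 and -0.36 and a 3-month value of -0.64 without bright spots.

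Kcnj11, the pore of the ATP-sensitive channel that couples metabolism to excitability in pancreatic beta cells, crossed 0 between ages. It read 38576 and 44066 at 1 month (ratio -0.19) and 32977 and 52343 at 3 months (0.25). With median centring in place of loess both were above 0 (0.70 and 1.03), so the crossing depends on the normalization. Its regulatory partner Abcc8 had 0.16 and 0.17. Kcnj8, the pore of the related channel of arterial muscle, had -0.07, -0.21 and -0.10, and its partner Abcc9 had -0.03, 0.16 and 0.07. Over all inward rectifiers 8 of 14 were above 0 at 1 month, 7 at 3 months and 5 on the age array.

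Voltage-gated potassium channels with pore-forming subunits made up 25 members, and none reached 1.5-fold between strains. Kcna5, an arterial and atrial channel, had their highest ratio at 3 months, 0.42 (9585 in WKY and 9778 in SHR), after 0.11 at 1 month. With all spots Kcnb2 was the lowest at 3 months with -0.47 (7091 and 3393), after -0.21 at 1 month. Without the bright background spots it had -0.49 and Kcnh5 was lower with -0.54. The silent subunit Kcng3 had 0.37 and 0.20. Medians were 0.04 and 0.03 on the strain arrays and -0.01 on the age array.

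Of these 25, 3 passed 1.5-fold on the age array, where 7.46% of all probes did. Kcnh2, the ERG channel that repolarizes heart muscle, had the highest age ratio of any member, 0.83, with 3104 in the first and 3502 in the second column. Its strain ratios were 0.10 and 0.11, with raw values of 6847 and 5417 at 1 month and 6900 and 5211 at 3 months. Kcna3, the main voltage-gated potassium channel of T lymphocytes, had the lowest age ratio, -0.996, with 5273 in the first and 1655 in the second column. Its strain ratios were -0.22 and -0.45, the latter from spots in bright background. Kcnh5, a neuronal channel of the ether-a-go-go group, had -0.35, -0.39 and -0.59. Direction by the headers thus puts Kcnh2 higher and Kcna3 and Kcnh5 lower at 3 months, and the sign-turned reading puts them the other way.

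Markers of lymphocytes and natural killer cells stand beside the Kcna3 value. Of 7 such probes, 1 was at least 1.5-fold lower on the age array (the dim Klrk1, -1.12 at 387 and 91.0 raw), as were 5.42% of all probes. The range of the list was -1.12 to 0.12 and its median -0.22, while Cd3d had -0.22, Cd8a -0.36 and Cd4 -0.36. Cd3d, the defining T cell marker of the list, was clear of background and 1 probe (Prf1) was near it. Summed raw readings of the list were 8944 in the first and 4211 in the second column of that array, 10870 and 6130 at 1 month, and 12360 and 7449 at 3 months. These sums are not normalized. The first column was the brighter in 86.6% of all gene spots on the age array, 86.5% at 1 month and 85.1% at 3 months. The part of these cells in the Kcna3 ratio was not tested. In whole liver RNA, fewer cells of a type and less RNA in each cell cannot be told apart.

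Calcium-activated and tandem-pore potassium channels were close to 0 with few exceptions. Kcnn2, a small-conductance channel reported in liver and bile duct cells, read 31906 and 33132 at 1 month (-0.16), 39691 and 37808 at 3 months (-0.42) and 34781 and 25539 on the age array (-0.64). Both of its 3-month spots lay in bright background. With median centring in place of loess its age ratio was 0.21, so its direction there depends on the normalization. Kcnma1, the pore of the large-conductance channel that relaxes arterial muscle, had -0.28 and -0.23, and -0.59 at 3 months without bright spots. Kcnn4 lay at 0.06, 0.06 and 0.15.

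Kcnk12, a tandem-pore subunit that forms little current by itself, had the largest change of strain ratio after the dim Cacng7 and Cacng3. It read 5163 in WKY and 2944 in SHR at 1 month, and 6297 and 5734 at 3 months. The ratios were -0.30 and 0.36, a change of 0.66 (0.69 without bright spots), while the age array gave 0.07. Kcnk6, a weakly rectifying member of the same class, ran the other way, with 0.34 and -0.17 from readings of 22694 and 30199 and of 32172 and 33435. With median centring it was above 0 at both ages (0.92 and 0.42), while Kcnk12 kept opposite signs under each of 11 alternatives. Of the 10 tandem-pore genes 3 were above 0 at 1 month and 5 at 3 months.

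The sodium channel genes showed no 1.5-fold difference between strains. Scn4a, the skeletal muscle channel, was the lowest at 1 month with -0.56 (4957 in WKY and 2308 in SHR), followed by -0.37 and -0.40. Scn2b, a beta subunit, was among the brightest members at 33659 and 56405, with 0.32, 0.24 and -0.39, the last of which was 0.57 with median centring. Scn11a, a channel of pain-sensing neurons, read 8169 and 6228, then 8585 and 4278, then 6634 and 2659. Its ratios were 0.01, -0.46 and -0.70, so that it passed 1.5-fold on the age array alone. Scn10a, found in the same neurons, had 0.11, -0.21 and -0.34.

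Other sodium channels varied less between strains. Scn1a, Scn8a and Scn9a had 0.17, 0.18 and 0.31 at 1 month, -0.01, 0.09 and 0.07 at 3 months, and 0.43, 0.38 and 0.28 on the age array. Scn3a had -0.06, -0.002 and -0.10. Scn6a had 0.09, 0.20 and 0.20. Scn2a1 had -0.14, -0.17 and -0.44, with both 3-month spots in bright background and an SHR column not above it. The family median was 0.05, -0.01 and -0.22, and on the age array it ran from -0.34 to 0.06 over the processing alternatives.

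Among the chloride channel genes no ratio passed 1.5-fold. Clcn2, a widely expressed channel opened by cell swelling and hyperpolarization, had 0.11, 0.31 and 0.50. Clcn5, an exchanger of endosomes in kidney tubules, had 0.08, -0.11 and -0.53. Clcn7, its lysosomal relative, had -0.29, -0.17 and -0.18. The muscle channel Clcn1 had -0.19, 0.07 and 0.001. The median of the 5 chloride genes at 1 month, 0.05, ranged from -0.28 to 0.07 over the alternatives.

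The HCN genes, whose channels open on hyperpolarization and pace heart and neurons, differed among themselves. Hcn2 stayed positive, with 0.16, 0.30 and 0.43, as did Hcn3 with 0.32, 0.14 and 0.42. Hcn4, the main sinus node form, had -0.18, 0.01 and -0.57.

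By the headers, RNA of SHR at 1 month was read in the second column of the 1-month array and in the first of the age array. On that reading it gave 80.2 and then 260 for Cacng7, 87.2 and then 211 for Cacng3, and 53737 and then 25867 for Kcne3. With the columns of the age array turned, as the labels' dyes would place them, its values there were 90.4, 67.1 and 53920, close to those of the 1-month array. Turned, however, SHR of 3 months read 260 for Cacng7 and 25867 for Kcne3 on the age array, against 80.7 and 62487 on the 3-month array, where the headers' reading gave 90.4 and 53920. Either reading thus left 1 of the SHR samples far from its strain array for Cacng7 and Kcne3. That outcome was set by the layout. SHR was in the second column on both strain arrays, so either reading compares 1 SHR sample across columns. Any probe with a repeated column difference must then mismatch for 1 sample. These raw readings, picked with their values seen, cannot decide the direction. Over all members the first column was the brighter in 88.3%, 84.6% and 86.9% of spots on the 3 arrays, against 86.5%, 85.1% and 86.6% of all gene spots. The arrays share SHR RNA and no dye was swapped, so column and RNA cannot be told apart within an array, and the column's part in the ratios was not tested.

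**Figure D4:**
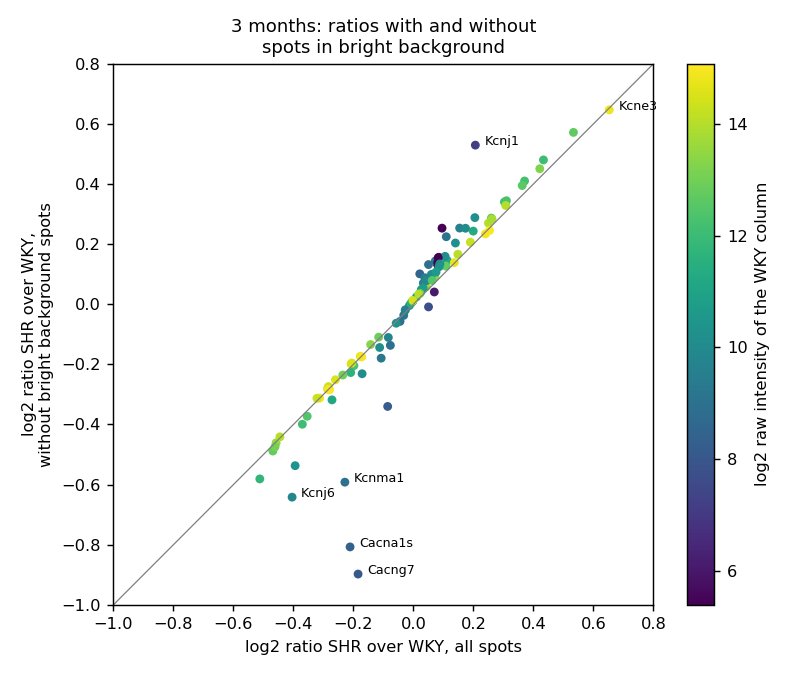
Log2 ratio of SHR over WKY at 3 months with all spots (horizontal axis) and without spots in bright background (vertical axis) for the 101 members that have both, coloured by log2 raw intensity of the WKY column. The grey line is equality, and the dim Cacng7, Cacna1s, Kcnma1 and Kcnj6 lie below it and Kcnj1 above.

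Grouped by where the channels are known to act, list medians lay between -0.18 and 0.14. Past 1.5-fold in either direction were 2.6%, 2.05% and 7.46% of all probes on the 3 arrays. Of 13 vascular smooth muscle channels, 12 were kept at 1 month and 13 at 3 months, with medians of -0.06 and 0.02 and 0 past 1.5-fold on any array. The 7 channels reported in hepatocytes or bile duct cells had medians of 0.06, 0.06 and 0.07, with Kcne3 past 1.5-fold at 3 months and on the age array and Kcnn2 on the age array in the opposite direction. Synaptic and neuronal channels, 24 in number, had medians of 0.05, 0.03 and 0.05. Of these 24, 2, 0 and 3 were at least 1.5-fold lower, against 2.41%, 1.49% and 5.42% of all probes. Cacng3 and Cacng7 were among them at 1 month and on the age array. The 10 heart and skeletal muscle channels had -0.10, -0.01 and -0.18, with Kcnh2 the single member past 1.5-fold, on the age array. The 6 kidney tubule channels (0.05, 0.02 and 0.13) and the 4 pancreatic islet channels (-0.12, 0.14 and 0.10) had 0 past 1.5-fold.

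Cell type markers were read on the same arrays. All 12 hepatocyte probes passed the filter, with medians of 0.06, -0.20 and -0.25. Of these 12, 1, 2 and 3 were at least 1.5-fold lower, against 2.41%, 1.49% and 5.42% of all probes. Albumin (Alb) had -0.15, -1.01 and -1.10. All 11 neuron probes passed it too, with medians of 0.05, -0.01 and 0.09 and 0 past 1.5-fold. Summed raw readings of the hepatocyte list ran from 54490 to 101500 over the 6 columns and those of the neuron list from 65260 to 98480. The sums of the lists cannot be set against each other, because probes differ in how strongly they bind. Near background on each array was 1 neuron probe, Eno2. Also near it, at 3 months and on the age array, was 1 of the fibrinogen Fgb probes of the hepatocyte list (50.7 to 56.7 raw). Snap25, a synaptic marker, had -0.32, 0.05 and -0.14. Vascular smooth muscle gave 5 probes, with medians of -0.03, -0.02 and -0.002 and desmin (Des) at -0.60 on the age array. The bile duct marker Epcam had 0.10, 0.09 and -0.01. The part of these cells in the channel ratios was not tested.

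Genes next to the channels in ion transport were mostly as close to 0. Past 1.5-fold in either direction were 2.6%, 2.05% and 7.46% of all probes on the 3 arrays. Among 25 TRP, ASIC and P2X cation channels, 1 was at least 1.5-fold lower at 1 month, the ATP-gated P2rx2 with -0.85 at 260 and 86.6 raw. It was the 1 gene of the list past 1.5-fold on the age array too, with -0.93 at 226 and 73.7 raw. At 3 months the calcium channel Trpv5 had 0.62 and the heat- and capsaicin-gated Trpv1 -0.60. The 7 sodium pump subunits had 0 past 1.5-fold between strains and Atp1a4 at 0.69 on the age array. Of 13 calcium pump, exchanger and release genes, the exchanger Slc8a3 had -0.64 at 1 month and the pump Atp2b2 had 0.79 on the age array. The intracellular chloride channel proteins Clic4 and Clic5 stayed under 1.5-fold.

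Among 19 partners that anchor or regulate channels, 1 was at least 1.5-fold higher at both ages (0.194% of all probes at 1 month and 0.566% at 3 months). Camk2d, a calcium- and calmodulin-dependent kinase subunit of heart and smooth muscle, had 0.92 at 3 months and 0.75 on the age array. At 1 month both of its spots in the SHR column were saturated, at the scanner's highest reading of 65535, so SHR was at least 1.55-fold brighter there. No member had a saturated spot. The scaffold protein Dlg2 had 0.37, 0.36 and 0.83, and Fgf14, which binds sodium channels, had -0.08, -0.45 and -0.63. The scaffold Dlg4 had -0.56 at 1 month, at 833 and 303 raw.

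**Figure D5:**
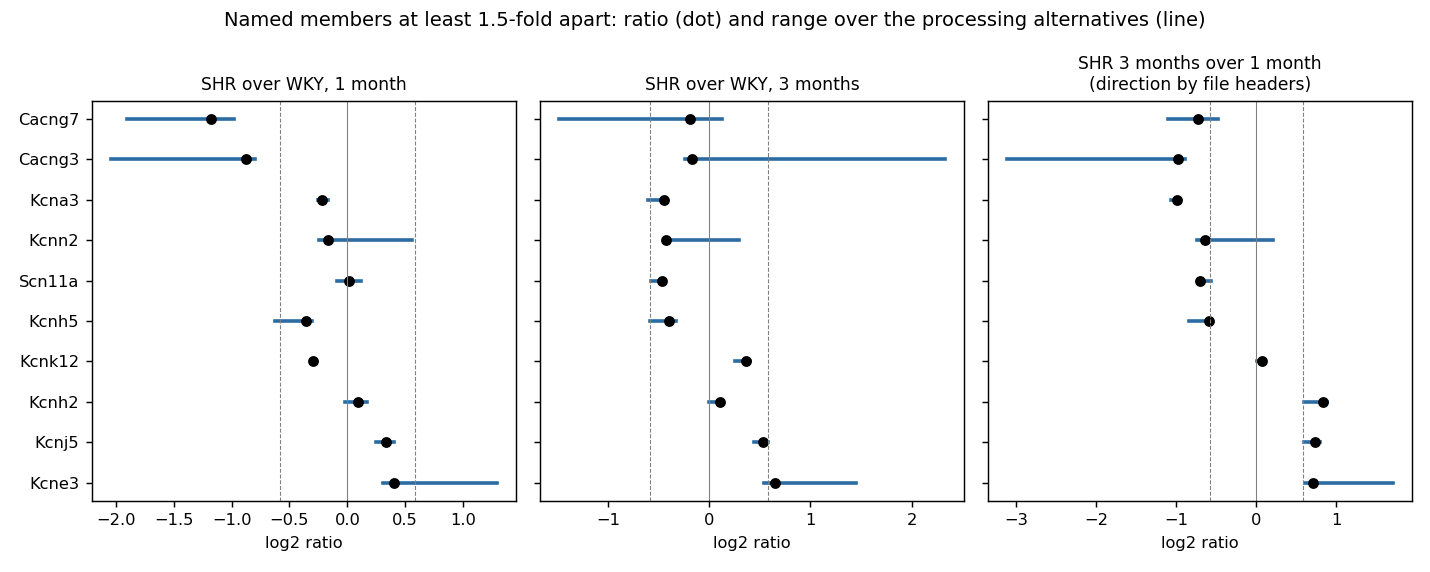
Log2 ratio (dot) and its range over the processing alternatives (line) for 10 members past 1.5-fold on any array or in the change with age, with dashed lines at 1.5-fold. Cacng3, Kcna3, Kcne3, Kcnh2 and Kcnj5 stay past 1.5-fold on the age array under each alternative that gave a value, with the sign by the headers. Lines that span 0 are Cacng7 and Cacng3 at 3 months, Kcnn2 on every array, Kcnh2 on both strain arrays and Scn11a at 1 month.

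Over the alternatives that gave a value, Cacng7 ran from -1.90 to -0.98 at 1 month and from -1.48 to 0.12 at 3 months. Cacng3 ran from -2.04 to -0.79 at 1 month. At 3 months it ran from -0.24 to 2.33, the latter in the authors' deposited table of log2 values, and its change from 0.69 to 4.37. Kcne3 ran from 0.54 to 1.45 at 3 months, past 1.5-fold under 10 of 11. On the age array Kcna3 ran from -1.07 to -0.99, Kcnh2 from 0.59 to 0.88 and Kcnj5 from 0.60 to 0.80, all before any turn of the sign. The change for Kcnk12 ran from 0.54 to 0.70.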

How the data were processed

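Liver RNA of 3 comparisons was measured on 2-colour spotted arrays. Per the file headers, the deposited scanner tables give each spot's mean raw intensity and its local background intensity in both columns. A deposited table of the authors' log2 values was compared with log2 of the second over the first of the scanner's net intensity columns. The median absolute difference was 0.0016, 0.0032 and 0.0035, and Pearson r was 0.76, 0.69 and 0.82, so some spots differed by far more than the median. The centring of the authors' table and the scanning software are not given in the sources used here. Medians of that table were -0.0050, 0.0050 and 0.0008.

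Ratios were recomputed from raw intensity with limma 3.58.1 in R 4.3.3: normexp background correction with an offset of 50, then global loess with a span of 0.3. The median before loess was -0.51, -0.36 and -0.65. Loess makes each value relative to probes of similar intensity on the same array. Spots were kept where at least 1 column exceeded background by 2 SD, and both spots of an accession were averaged, except for 6 accessions printed on more than 2 spots. Python 3.11.15, numpy 2.4.6, pandas 2.3.3 and matplotlib 3.10.9 did the rest. The steps were tested on simulated data with known changes among brighter probes only, so recovery for dim probes such as Cacng3 and Cacng7 was not tested.

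Members and lists were chosen with earlier results of these data known. Named by rule were 6 members at each end of every array, 5 at each end for the change of strain ratio, members at least 1.5-fold apart, every sodium, chloride and HCN gene, Cacng7, Cacng3 and Kcnip4, and up to 4 members of each list (up to 3 for related genes), in all 44 members before the lists. Some members named by rule are not reported here. Other members are named for their role or family, with their values seen. Symbols were matched to RefSeq by accession for 70 members, by symbol for 35 and by synonym for 2. The number of arrays limits the precision. Alternatives were offset 0, no background correction, plain subtraction, leaving out bright background spots, loess per subgrid, median centring, the authors' log2 values, a stricter filter, no filter, each spot alone and, for the age array, the sign turned.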

Additional observations from a re-analysis of the deposited data

Results flagged for a closer look

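In 3 members named here the strain ratio had opposite signs at the 2 ages, each beyond 2 times the pooled SD between spots. Kcnk6 had 0.338 at 1 month and -0.172 at 3 months. Kcnj11 ran upward, from -0.192 to 0.254, and Kcnk12 from -0.295 to 0.363. Each age has 1 array, so the difference was not tested. With median centring in place of loess Kcnk6 was 0.421 at 3 months and Kcnj11 was 0.699 at 1 month, so both lost the opposite signs. Kcnk12 kept them under each of 11 alternatives.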

How the results depend on the processing

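Of 98 recomputed medians and counts over all members, 81 kept their value or stayed within 1.5 times the count, and 17 moved. The number of members at least 1.5-fold apart at 1 month, 2, became 6 with offset 0, 5 with plain subtraction, 23 with median centring and 4 with the authors' log2 values. At 3 months 1 became 5 without background correction, 12 with plain subtraction, 5 without bright background spots, 2 with loess per subgrid, 7 with median centring and 9 with the authors' log2 values. On the age array 10 became 16 with offset 0, 16 with plain subtraction and 30 with median centring. Its median, -0.0574, was 0.00477 with median centring and 0.0574 with the sign turned. For the change with age 3 became 1 without bright spots and 16 with median centring. Of 240 family medians 32 moved. Among 1920 values of single members 491 moved, and 1 that was past 1.5-fold reversed, Kcnn2 on the age array with median centring (0.208). Values under 1.5-fold are included in the 85 that turned sign, 36 of them with median centring and 16 with the authors' log2 values, and 33 of the 85 had been over 2 SD between spots from 0. The cause was not tested. With median centring 17.9%, 10.0% and 25.5% of all probes were past 1.5-fold on the 3 arrays. No paired analysis was possible because each comparison has 1 array. Dim probes, at a log2 intensity under 9, limit what can be read.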
